A study of Rattus norvegicus with 15 samples.

Results

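Translation initiation and elongation factors were followed by RNA-seq in prostates of rats with a prostatitis model, treated or not with low-intensity pulsed ultrasound (LIPUS), and of control rats. The members were the protein coding genes whose name begins with Eif or Eef and a digit, apart from the eIF2 kinases (names beginning Eif2ak) and pseudogenes. The rule used names alone and no measured value. It gave 63 genes of 22436 in the table, of which 18127 were protein coding, and 61 of the 63 were tested, having more than 0.5 scaled FPKM (a unit explained with the libraries) in at least 5 of the 15 libraries. Eef1a2 and Eef1akmt4 did not pass that filter. Initiation factors load the initiator tRNA and the mRNA onto the small ribosomal subunit: eIF2 carries the tRNA, eIF4F binds the mRNA cap and unwinds the leader, eIF3 bridges mRNA and subunit, and eIF5B joins the large subunit. Elongation factors then deliver each aminoacyl-tRNA (eEF1A, recharged by the eEF1B subunits) and move the ribosome along (eEF2). Several of these genes share with the ribosomal protein genes a pyrimidine tract at the start of the mRNA, the TOP motif, through which the kinase mTORC1 controls their translation.

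RNA-seq was made from total RNA of prostate tissue of SD rats in 3 groups of 5 samples. LIPUS samples came from the prostatitis model treated with ultrasound for 4 weeks. Model samples came from rats with the model of chronic prostatitis and chronic pelvic pain and no treatment, and Control samples from rats without it. How the model was induced, the age of the rats and the lobe taken are not given in the sources used here. The ultrasound intensity is uncertain, being 1.0 W/cm2 in the titles of the LIPUS samples and 1.5 W/cm2 in their treatment field. Replicates are numbered 6 to 10 in each group, and values of single libraries are given in that order. Whether each sample is a separate animal is not stated, and if not, the p-values reflect technical spread alone.

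Between 29675962 and 36402094 reads were recovered per library. Reads of the 13 mitochondrially encoded genes took 43.0% to 83.3% of a library in LIPUS, 23.5% to 43.5% in Model and 3.75% to 4.69% in Control. Levels are therefore given as scaled FPKM, the deposited FPKM (fragments per kilobase of gene, corrected for sequencing depth) divided by a factor per library from the median ratio over 10313 genes, and log2 differences are of scaled FPKM + 0.1. As deposited, the median log2 difference over the tested genes was -1.48 for LIPUS against Control and -0.90 for Model against Control, and after scaling it was -0.13 and -0.12, so differences are relative to a near-central gene of each library. The library of Model replicate 7 stood apart: its log2 ratio of ventral to dorsolateral lobe secretory genes was 7.79, against -9.51 to -2.84 in the other Model libraries, -0.68 to 4.52 in LIPUS and 1.16 to 5.84 in Control. Summed markers of dividing cells were 1.95 to 3.57 scaled FPKM in LIPUS, 0.125 to 0.352 in Model and 19.4 to 36.9 in Control, and all 5 of them were lower than Control in both groups. Fibroblast markers summed to 68.2 to 454 scaled FPKM in LIPUS, 52.2 to 149 in Model and 359 to 597 in Control, and endothelial markers to 0.755 to 1.98, 0.459 to 3.81 and 6.00 to 11.3 scaled FPKM in the same order. Luminal epithelial markers, which check the labelled tissue, summed to 424 to 582 scaled FPKM in LIPUS, 441 to 919 in Model and 333 to 459 in Control, and no marker of any list was at 0 in every library. Whether these differences in tissue make-up have a part in the levels of the factors was not tested, apart from the lobe ratio as a covariate. In bulk tissue, fewer cells of a type and less RNA per cell cannot be told apart.

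The first bases of 9 members are shown as examples, with the sign of their difference from Control and any pyrimidine tract. They are 9 of the 63 members, so how often a tract goes with a rise cannot be read from them. Each run holds 50 bases, 25 before the annotated start and 25 from it, from RefSeq on GRCr8. Capitals mark each tract, searched on the gene's strand as a C followed by at least 5 bases that are C or T, with its first base within 10 bases of the annotated start.
Members higher than Control in LIPUS, Model or both:
Eef1a1 (chr8:88225045-88225094, minus strand): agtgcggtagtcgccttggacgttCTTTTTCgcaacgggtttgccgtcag
Eef1b2 (chr9:72074066-72074115, plus strand): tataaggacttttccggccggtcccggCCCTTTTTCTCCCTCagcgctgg
Eif3f (chr1:172369037-172369086, plus strand): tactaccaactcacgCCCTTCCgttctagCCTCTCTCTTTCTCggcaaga
Eif3m (chr3:111897169-111897218, minus strand): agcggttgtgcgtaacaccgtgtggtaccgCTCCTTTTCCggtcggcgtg
Eif4ebp3 (chr18:28540299-28540348, plus strand): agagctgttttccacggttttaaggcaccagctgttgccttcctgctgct
Members lower than Control in LIPUS and Model:
Eif4g1 (chr11:93746343-93746392, minus strand): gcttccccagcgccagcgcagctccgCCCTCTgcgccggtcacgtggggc
Eif3a (chr1:269919001-269919050, minus strand): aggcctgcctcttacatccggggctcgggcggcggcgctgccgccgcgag
Eif4g3 (chr5:155481353-155481402, plus strand): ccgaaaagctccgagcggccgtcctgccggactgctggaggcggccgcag
Eif4ebp2 (chr20:29942898-29942947, minus strand): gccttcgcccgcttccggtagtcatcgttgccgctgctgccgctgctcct
A tract was found in 13 of the 56 members with a window (23.2%), in 41 of 66 ribosomal protein genes (62.1%) and in 17.7% of the tested genes with a window. Eef1akmt3, Eef1d, Eif3el1, Eif3h, Eif4b, Eif4e3 and Eif4ebp1 have no window here. Eif3f holds 2 tracts and the other members at most 1. The annotated start decides the count, and a missing match says only that these letters are not near that start. Members with a tract had a median log2 difference of 0.75 in LIPUS against Control and 0.86 in Model against Control. The 41 tested members with a window and no tract had medians of 0.26 and 0.19 in the same order. Ribosomal protein genes had medians of 1.79 and 1.95 with a tract and 1.81 and 1.77 without. For all tested genes with a window they were -0.05 and -0.07 with a tract and -0.14 and -0.13 without. The part of gene length in these medians was not tested. Eif4g1, which had the lowest difference of the 61 in both comparisons, has a tract, and Eif4ebp3, which had the highest in Model, has none.

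Relative to the median-ratio scaling, most factors that differed from Control were higher, in LIPUS and in Model. In LIPUS against Control, 26 of 61 factors rose and 4 fell, where 12.1% of all 12097 tested genes rose and 13.7% fell. In Model against Control, 24 factors rose and 5 fell, where 15.9% of tested genes rose and 19.7% fell. The median log2 difference of the factors was 0.40 in LIPUS against Control and 0.34 in Model against Control, beside -0.13 and -0.12 over all tested genes. Calls are limma's test across all tested genes at a Benjamini-Hochberg adjusted p under 0.05. The groups did not overlap in sample values for 26 higher and 4 lower factors in LIPUS against Control (11.6% and 14.9% of tested genes), and for 24 higher and 5 lower factors in Model against Control (14.6% and 17.7%). Both comparisons use the same Control samples. In each of them 20 factors rose and Eif3a, Eif4ebp2, Eif4g1 and Eif4g3 fell, and 26 of the 61 were called in neither.

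**Figure D1:**
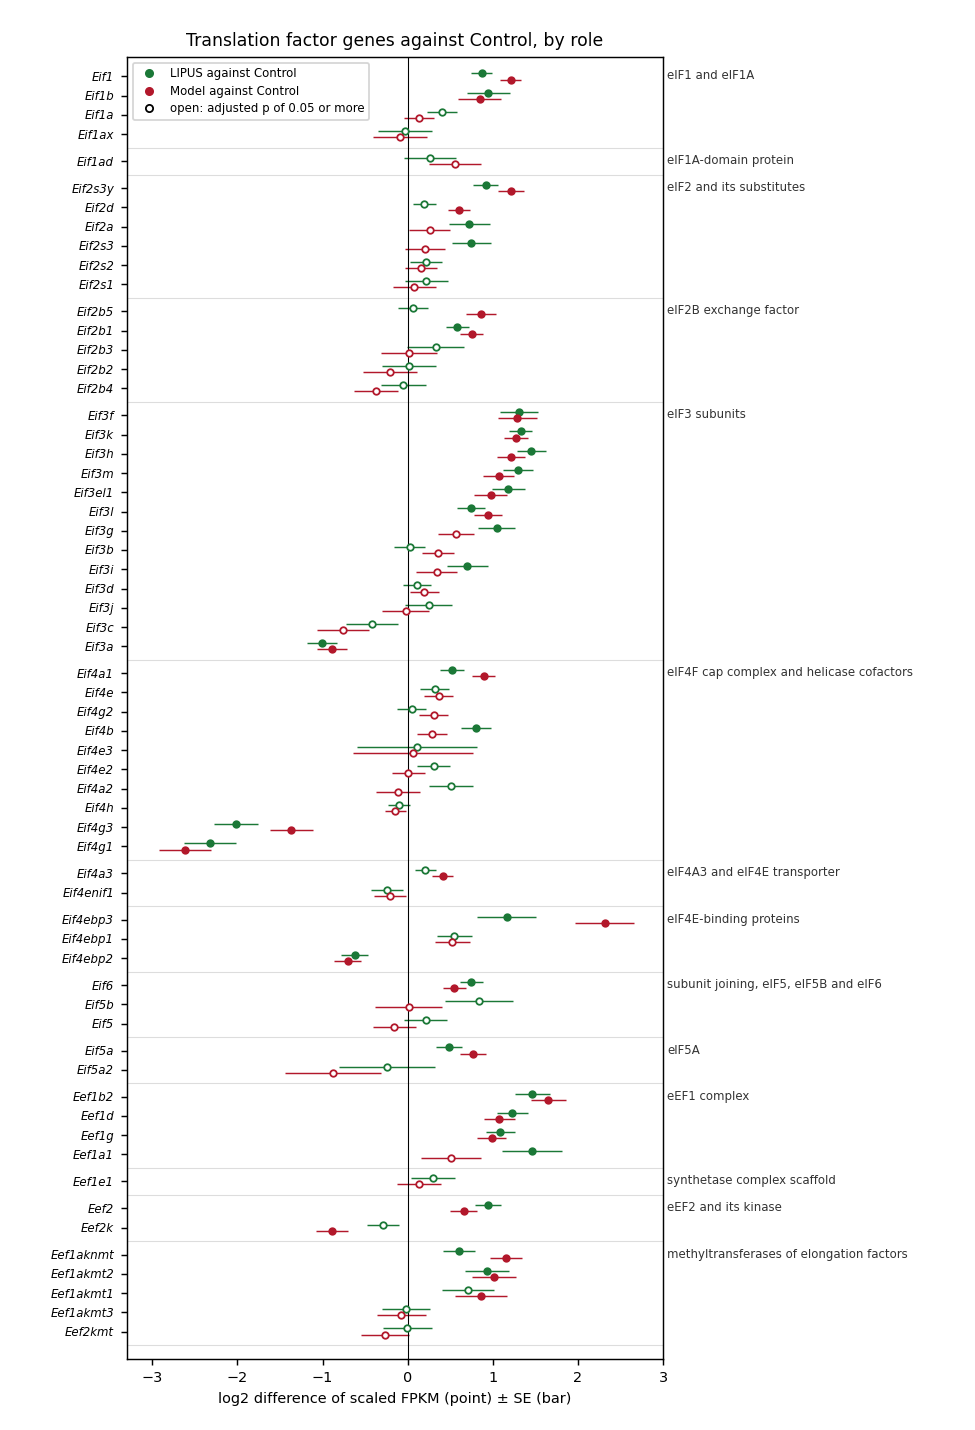
Log2 difference of scaled FPKM from Control (points, with SE bars) of the 61 tested factors, grouped by role, for LIPUS (green) and Model (red). Filled points have an adjusted p under 0.05: on this scaling most of them lie right of 0 (on FPKM as deposited, 0 factors rose in LIPUS and 2 in Model), and Eif4g1 lies farthest left at -2.32 in LIPUS and -2.61 in Model.

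These counts depend on how the libraries are scaled. On FPKM as deposited, where the median gene lies far below Control, 0 factors rose and 36 fell in LIPUS against Control (0.953% and 74.4% of tested genes), and 2 rose and 11 fell in Model against Control (2.95% and 43.1%). Their medians were then -0.94 and -0.43, above the -1.48 and -0.90 of all tested genes. Scaling to the total of nuclear reads gave 8 higher and 4 lower factors in LIPUS (4.87% and 18.9% of tested genes) and 6 higher and 7 lower in Model (5.45% and 32.6%). Quantile normalization gave 16 higher and 6 lower in LIPUS (11.4% and 12.4%) and 16 higher and 9 lower in Model (17.2% and 16.9%). The factors called lower in the scaled values (4 in LIPUS, 5 in Model) were called lower under each of those 3 scalings. Of the 26 called higher in LIPUS, 23 had a negative difference on FPKM as deposited, 0 when scaled to the nuclear total and 5 after quantile normalization, and of the 24 called higher in Model 6, 1 and 2 did in the same order. With the log2 ratio of ventral to dorsolateral lobe genes as a covariate, 33 factors rose and 4 fell in LIPUS against Control (15.6% and 20.3% of tested genes) and 34 rose and 5 fell in Model against Control (13.5% and 20.0%), where the median of the factors was 0.63.

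The lowest log2 differences were in eIF4G, the scaffold of the cap-binding complex, which holds the cap-binding protein eIF4E and the helicase eIF4A together. Eif4g1, the main scaffold, had 12.8, 9.81, 7.19, 13.3 and 10.8 scaled FPKM in LIPUS libraries, 12.0, 11.1, 8.52, 3.32 and 12.2 in Model libraries and 65.5, 40.8, 49.1, 58.9 and 54.2 in Control libraries. Every LIPUS and Model library lay below every Control library. Its log2 difference was -2.32 (SE 0.31, adjusted p = 0.000118) in LIPUS against Control and -2.61 (SE 0.31, adjusted p = 2.35e-05) in Model against Control. Eif4g3, a paralog of the scaffold, had 0.591, 1.04, 0.728, 1.44 and 1.47 scaled FPKM in LIPUS libraries, 1.91, 1.14, 1.50, 2.17 and 1.60 in Model libraries and 4.60, 4.15, 3.94, 4.91 and 4.18 in Control libraries. Again the groups did not overlap with Control, and its log2 difference was -2.02 (SE 0.26, adjusted p = 9.20e-05) in LIPUS and -1.36 (SE 0.26, adjusted p = 0.00091) in Model. Eif4g2, a relative that lacks the eIF4E-binding part and serves cap-independent initiation, had 175, 176, 122, 145 and 117 scaled FPKM in LIPUS libraries, 145, 250.1, 165, 165 and 159 in Model libraries and 154, 125, 131, 146 and 146 in Control libraries. Its groups overlapped, and it was not called in either comparison (adjusted p = 0.864 in LIPUS and 0.184 in Model).

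The other genes of eIF4F were either higher or not called. Eif4a1, the main helicase, had 135, 138, 142, 129.7 and 103 scaled FPKM in LIPUS libraries, 135, 154, 175, 183 and 194 in Model libraries and 99.2, 84.8, 89.2, 84.7 and 91.7 in Control libraries. It rose by 0.52 on the log2 scale in LIPUS against Control (adjusted p = 0.0123) and by 0.89 in Model against Control (adjusted p = 0.000183), with no overlap with Control. In Model the call of Eif4a1 was lost on FPKM as deposited (0.11), scaled to the nuclear total (0.35) and after quantile normalization (0.26). In LIPUS it was at -0.91 on FPKM as deposited and there called lower (limma, adjusted p = 0.0178). Its paralog Eif4a2 had 190.3, 179, 164, 129 and 149.8 scaled FPKM in LIPUS libraries, 78.3, 225, 113, 93.2 and 67.5 in Model libraries and 119, 101, 116, 113 and 117 in Control libraries. In Model, replicate 7 had the highest Eif4a2 level and 3 of the other 4 libraries lay below every Control library. Eif4b, a cofactor of the helicase, averaged 70.1 ± 21.8 scaled FPKM in LIPUS, 47.1 ± 3.15 in Model and 38.9 ± 4.59 in Control (SD, n = 5 each) and rose in LIPUS against Control (0.81 (SE 0.18, adjusted p = 0.00388)). The cap-binding protein Eif4e ranged over 10.8 to 21.9 scaled FPKM in LIPUS, 14.3 to 19.6 in Model and 12.3 to 13.5 in Control, and it was called in neither comparison, nor were Eif4e2, Eif4e3 and Eif4h. Eif4a3, a helicase of the exon junction complex and not of eIF4F, rose in Model (0.41), and Eif4enif1, which carries eIF4E into the nucleus, was called in neither. Of the 10 tested genes of eIF4F and its helicase cofactors, 2 rose and 2 fell in LIPUS against Control and 1 rose and 2 fell in Model against Control, with medians of 0.20 and 0.03. No higher call of this list was kept on FPKM as deposited, scaled to the nuclear total or after quantile normalization.

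The 3 inhibitors that hold eIF4E away from eIF4G when mTORC1 is inactive, the 4E-BPs, differed from each other. Eif4ebp3 had 17.8, 39.7, 23.6, 50.6 and 8.77 scaled FPKM in LIPUS libraries, 55.8, 54.8, 43.7, 57.7 and 52.6 in Model libraries and 12.4, 10.2, 10.3, 10.9 and 9.07 in Control libraries. All Model libraries lay above every Control library, and 4 of 5 LIPUS libraries did too, replicate 10 being below them at 8.77. Its log2 difference was 1.16 (SE 0.34, adjusted p = 0.0224) in LIPUS against Control and 2.31 (SE 0.34, adjusted p = 0.000144) in Model against Control, the highest of the 61 in Model. Eif4ebp2 fell, with 22.9, 22.1, 23.1, 20.7 and 19.8 scaled FPKM in LIPUS libraries, 31.7, 18.0, 18.4, 17.5 and 19.7 in Model libraries and 34.1, 34.9, 29.6, 36.3 and 32.8 in Control libraries. Its log2 difference was -0.62 (SE 0.16, adjusted p = 0.00987) in LIPUS and -0.70 (SE 0.16, adjusted p = 0.0031) in Model, and all LIPUS libraries and 4 of 5 Model libraries lay below the Control range. Model replicate 6, at 31.7 scaled FPKM, lay within it. Eif4ebp1 averaged 76.7 ± 16.4 scaled FPKM in LIPUS, 75.9 ± 21.2 in Model and 52.1 ± 10.3 in Control (SD, n = 5 each). Its differences of 0.55 in LIPUS and 0.52 in Model did not pass (adjusted p = 0.0618 and 0.0597). Leaving out 1 library moved some of these calls. Eif4ebp3 in LIPUS against Control was not called without LIPUS replicate 7 (0.98, adjusted p = 0.0563), LIPUS replicate 9 (0.89, adjusted p = 0.050004) or Control replicate 10 (1.11, adjusted p = 0.0531). Eif4ebp1 in LIPUS against Control was called without LIPUS replicate 10 (0.68, adjusted p = 0.0239), Model replicate 7 (0.55, adjusted p = 0.025) or Control replicate 6 (0.66, adjusted p = 0.0393). In Model against Control it was called without LIPUS replicate 10 (0.52, adjusted p = 0.0397), Model replicate 9 (0.60, adjusted p = 0.0492) or Control replicate 6 (0.63, adjusted p = 0.0355).

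**Figure D2:**
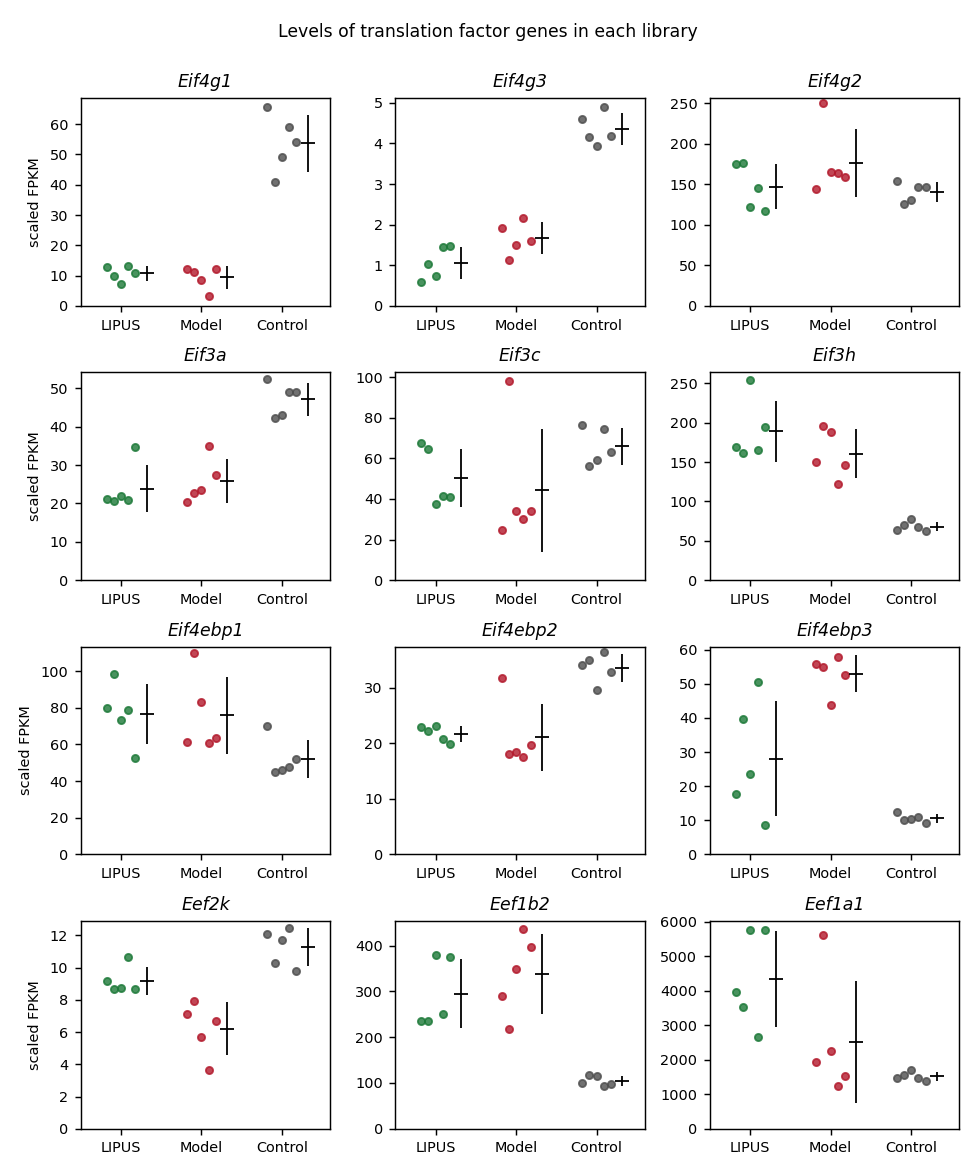
Scaled FPKM of 12 factors in each library (points) with the mean and SD of the 5 libraries of a group (black), LIPUS and Model left of Control. Eif4g1, Eif4g3 and Eif3a lie below Control in all 10 LIPUS and Model libraries and Eif4ebp2 in 9 of them, while Eif3h and Eef1b2 lie above it in all 10, and Model replicate 7 is the highest Model library for Eef1a1 (5601) and Eif3c (98.2).

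Subunits of eIF3, the largest initiation factor, rose in most of the cases called, apart from its largest subunit, which fell. Of 13 tested subunits, 8 rose and 1 fell in LIPUS against Control, and 6 rose and 1 fell in Model against Control, with medians of 0.74 and 0.57. On FPKM as deposited, 7 of the 8 that rose in LIPUS and 0 of the 6 that rose in Model had a negative difference. Eif3h had 169, 162, 254, 166 and 195 scaled FPKM in LIPUS libraries, 149.9, 196, 188, 122 and 146 in Model libraries and 63.2, 70.0, 77.1, 67.3 and 62.9 in Control libraries. No LIPUS or Model library overlapped with Control, and its log2 difference was 1.45 (SE 0.17, adjusted p = 4.36e-05) in LIPUS and 1.22 (SE 0.17, adjusted p = 7.01e-05) in Model. Eif3f, Eif3k, Eif3m, Eif3l and Eif3el1 (Eif3e in RefSeq) also rose in both comparisons, by 0.74 to 1.33 on the log2 scale in LIPUS and by 0.94 to 1.29 in Model. Eif3g and Eif3i rose in LIPUS against Control, by 1.04 and 0.70, and their differences in Model were 0.57 (adjusted p = 0.0518) and 0.34 (adjusted p = 0.292). LIPUS against Model did not pass for either (Eif3g 0.48, adjusted p = 0.179, Eif3i 0.36, adjusted p = 0.357).

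Eif3a, the largest subunit and a scaffold of the complex, had 21.2, 20.7, 21.8, 20.9 and 34.7 scaled FPKM in LIPUS libraries, 20.5, 22.8, 23.5, 35.0 and 27.4 in Model libraries and 52.4, 42.2, 43.1, 48.9 and 49.0 in Control libraries. All 10 LIPUS and Model libraries lay below the lowest Control library, LIPUS replicate 10 and Model replicate 9 being the closest to it. Its log2 difference was -1.01 (SE 0.18, adjusted p = 0.000872) in LIPUS and -0.89 (SE 0.18, adjusted p = 0.00136) in Model. Eif3c, another core subunit, had 67.5, 64.5, 37.4, 41.4 and 40.7 scaled FPKM in LIPUS libraries, 24.7, 98.2, 34.1, 30.2 and 34.1 in Model libraries and 76.6, 56.0, 59.2, 74.3 and 63.0 in Control libraries. In 4 Model libraries it lay below every Control library, and in replicate 7 above all of them. Its difference in Model against Control was -0.76 (SE 0.31, adjusted p = 0.0664) with that library and -1.09 (adjusted p = 0.000373) without it, and it was 0.01 (adjusted p = 0.969) with the lobe ratio as a covariate. Eif3b, Eif3d and Eif3j were called in neither comparison.

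Among the factors that select the start codon, Eif1 had 369.8, 384, 394, 352 and 387 scaled FPKM in LIPUS libraries, 415, 496, 501, 506 and 482 in Model libraries and 225, 186, 212, 196 and 216 in Control libraries. It lay above Control in every LIPUS and Model library, with log2 differences of 0.87 (SE 0.12, adjusted p = 0.000185) in LIPUS and 1.21 (SE 0.12, adjusted p = 9.81e-06) in Model. In LIPUS that call was lost on FPKM as deposited (-0.57), scaled to the nuclear total (0.58) and after quantile normalization (-0.076). It was also lost there when centred by gene length (0.30). In Model, Eif1 was not called on FPKM as deposited (0.43) or after quantile normalization (0.23). Its paralog Eif1b rose as well, by 0.95 in LIPUS and 0.85 in Model, but in Model its difference was 0.28 (adjusted p = 0.359) with the lobe ratio as a covariate, and neither call was kept on FPKM as deposited, scaled to the nuclear total or centred by gene length (0.32 in LIPUS and 0.42 in Model). Eif1a and Eif1ax, which encode eIF1A, were called in neither comparison, nor was Eif1ad, which has an eIF1A-like domain. Of the 6 tested genes of eIF2 and its substitutes, 3 rose in LIPUS and 2 in Model, and none fell. On FPKM as deposited, the 3 that rose in LIPUS had a negative difference, as did 1 of the 2 in Model. Eif2s3y, the copy of the gamma subunit on the Y chromosome, averaged 43.2 ± 5.47 scaled FPKM in LIPUS, 53.4 ± 8.18 in Model and 22.8 ± 2.63 in Control (SD, n = 5 each) and rose by 0.92 and 1.21 on the log2 scale. Its partner Eif2s3 rose in LIPUS (0.75, adjusted p = 0.028) and was not called in Model (adjusted p = 0.535). The same held for Eif2a, a factor that can deliver initiator tRNA without eIF2 (0.72 in LIPUS), and Eif2d, a related factor, rose in Model (0.60). Eif2s1, whose protein is the one that stress kinases phosphorylate, ranged over 56.9 to 98.0 scaled FPKM in LIPUS, 47.0 to 136 in Model and 55.2 to 87.6 in Control and was called in neither, nor was Eif2s2.

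The exchange factor eIF2B reloads eIF2 with GTP and is what phosphorylated eIF2 blocks. Eif2b5, its catalytic epsilon subunit, had 7.55, 10.5, 6.99, 5.93 and 5.14 scaled FPKM in LIPUS libraries, 13.5, 10.9, 12.6, 11.2 and 13.4 in Model libraries and 6.51, 6.12, 6.47, 7.10 and 7.32 in Control libraries. Model libraries all lay above both other groups. It rose in Model against Control (0.86 (SE 0.18, adjusted p = 0.00158)), and in LIPUS against Control its adjusted p was 0.817. Eif2b1, the alpha subunit, averaged 15.3 ± 2.10 scaled FPKM in LIPUS, 17.2 ± 2.06 in Model and 10.1 ± 0.756 in Control (SD, n = 5 each) and rose in LIPUS (0.58) and in Model (0.75). On FPKM as deposited Eif2b1 was instead called lower in LIPUS (-0.84, limma, adjusted p = 0.0183). Eif2b2, Eif2b3 and Eif2b4 were called in neither comparison. At the step of subunit joining, Eif6, which keeps the large subunit apart until it is ready, rose by 0.75 in LIPUS and 0.55 in Model. Eif5 and Eif5b were called in neither, and Eif5b had a wide range in LIPUS, 14.4 to 95.9 scaled FPKM, against 19.1 to 23.7 in Control.

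Of the 4 tested genes of the eEF1 complex, 4 rose in LIPUS against Control and 3 in Model against Control, and none fell, although in LIPUS Eef1d and Eef1g were negative on FPKM as deposited and Eef1a1 and Eef1g after quantile normalization. Eef1a1, which delivers aminoacyl-tRNA, had 3969, 3528, 5768, 2655 and 5770.0 scaled FPKM in LIPUS libraries, 1936, 5601, 2246, 1240.2 and 1515 in Model libraries and 1483, 1563, 1700.4, 1462 and 1373 in Control libraries. All LIPUS libraries lay above Control, whereas Model replicates 9 and 10 lay within or below the Control range and replicate 7 far above it. Its log2 difference was 1.46 (SE 0.35, adjusted p = 0.00736) in LIPUS and 0.51 (SE 0.35, adjusted p = 0.287) in Model, and with quantile normalization it was -0.05 and -0.97. With the lobe ratio as a covariate, Model against Control was 1.23 (adjusted p = 0.0112). Eef1a1 took 44.1% ± 6.21 of the reads of all factors in LIPUS, 30.8% ± 10.2 in Model and 29.3% ± 1.96 in Control (SD, n = 5 each). Eef1b2, which recharges eEF1A with GTP, had 236, 236, 379, 250.0 and 376 scaled FPKM in LIPUS libraries, 289, 217, 349, 437 and 398 in Model libraries and 99.7, 118, 115, 93.5 and 97.2 in Control libraries. No library of either group overlapped with Control, and its log2 difference was 1.47 (SE 0.21, adjusted p = 0.000195) in LIPUS and 1.65 (SE 0.21, adjusted p = 3.98e-05) in Model. Eef1d and Eef1g, further subunits of the exchange complex, rose by 1.23 and 1.09 in LIPUS and by 1.07 and 0.99 in Model, although Eef1g was at -0.20 and -0.09 in LIPUS and Model after quantile normalization. Eef1a2, the paralog typical of muscle and neurons, was at 0 in 4 of 5 LIPUS libraries and 3 of 5 Model libraries and reached 3.45 scaled FPKM in Control, and was below the filter.

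For translocation, the factor rose in LIPUS and Model on the median-ratio scaling, and its kinase fell in Model. Eef2 had 586, 598, 829, 584 and 793 scaled FPKM in LIPUS libraries, 480.1, 629, 555, 529 and 569 in Model libraries and 330.3, 359.6, 392, 356 and 311 in Control libraries. It lay above Control in every library of both groups and rose by 0.94 (SE 0.16, adjusted p = 0.000561) in LIPUS and 0.66 (SE 0.16, adjusted p = 0.00423) in Model. After quantile normalization it was instead called lower, at -0.40 (adjusted p = 0.0493) in LIPUS and -0.49 (adjusted p = 0.0127) in Model. Eef2k, the kinase that inactivates eEF2, had 9.19, 8.68, 8.72, 10.6 and 8.66 scaled FPKM in LIPUS libraries, 7.14, 7.95, 5.69, 3.64 and 6.69 in Model libraries and 12.1, 10.3, 11.7, 12.5 and 9.80 in Control libraries. All Model libraries lay below Control (-0.89 (SE 0.19, adjusted p = 0.00215), and -0.53 with adjusted p = 0.0659 when centred by gene length), and the difference in LIPUS was -0.29 (SE 0.19, adjusted p = 0.284). Eif5a, which helps ribosomes through difficult peptide bonds and carries the residue hypusine, averaged 199 ± 29.6 scaled FPKM in LIPUS, 243 ± 40.1 in Model and 141 ± 11.6 in Control (SD, n = 5 each) and rose by 0.48 in LIPUS (adjusted p = 0.0304) and 0.77 in Model (adjusted p = 0.00132). The Eif5a call in LIPUS was lost without any 1 of LIPUS replicates 6, 7 and 8 or of Control replicates 7, 9 and 10 (0.43 to 0.48, adjusted p = 0.0611 to 0.0757). Both Eif5a calls were lost under each of the 3 other scalings. In Model it was then at -0.012 on FPKM as deposited, 0.22 scaled to the nuclear total and 0.058 after quantile normalization. Of the 5 tested methyltransferases that modify elongation factors, 2 rose in LIPUS and 3 in Model and none fell. Eef1aknmt (Mettl13 in RefSeq), which methylates eEF1A, averaged 3.89 ± 0.686 scaled FPKM in LIPUS, 5.77 ± 1.15 in Model and 2.50 ± 0.259 in Control (SD, n = 5 each) and rose by 0.60 and 1.16. Its call in LIPUS was lost without LIPUS replicate 9 or any 1 of Control replicates 7 to 10 (0.55 to 0.61, adjusted p = 0.0535 to 0.0682). On FPKM as deposited Eef1aknmt was instead called lower in LIPUS (-0.78, limma, adjusted p = 0.0167). Eef1akmt2, another methyltransferase of eEF1A, rose by 0.94 and 1.01, Eef1akmt1 rose in Model (0.86, adjusted p = 0.0403, but 0.0935 with the lobe ratio as a covariate), and Eef1akmt3 and Eef2kmt, which methylates eEF2, were called in neither. Eef1e1, a scaffold of the tRNA synthetase complex in spite of its name, was called in neither comparison.

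Some of these values carry limits of counting. The strand used in counting is not stated, and 15 members overlap another protein coding gene in RefSeq on GRCr8, among them Eif4a1, Eif3i, Eif3k, Eif5a, Eef1d, Eif2b1, Eef2k and Eif2s3y, whose reads then cannot be told from those of the neighbour. Near-identical copies also share reads, as in Eif1a and Eif1ax, Eif2s3 and Eif2s3y, and Eef1a1 with its processed copies, so the split between them is uncertain.

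LIPUS against Model addresses the ultrasound treatment. Of the factors, Eif2b5 alone passed, and it fell in LIPUS (-0.80 (SE 0.18, adjusted p = 0.0253)). That is 0 higher and 1 lower of 61 factors, where 2.81% of tested genes rose and 1.48% fell. At an unadjusted p under 0.05 there were 13 factors. The median of the factors was 0.08, beside -0.02 over all tested genes. Eif2b5 levels of 7.22 ± 2.06 scaled FPKM in LIPUS and 12.3 ± 1.23 in Model (SD, n = 5 each) did not overlap. The call was lost without LIPUS replicate 10 or without Model replicate 8, 9 or 10 (-0.84 to -0.69, adjusted p = 0.0525 to 0.0685), and in a fit of LIPUS and Model alone (adjusted p = 0.17). Eif4ebp3 had a difference of -1.15 (SE 0.34, adjusted p = 0.0645) and Eef1a1 one of 0.95 (SE 0.35, adjusted p = 0.113). Eif4ebp3 passed without LIPUS replicate 7 (-1.34, adjusted p = 0.0369) or LIPUS replicate 9 (-1.43, adjusted p = 0.0266). Between LIPUS and Model, 2 factors were higher and 2 lower with no overlap (1.65% and 1.32% of tested genes): Eif4b and Eef2k were higher and Eif1 and Eif2b5 lower. On FPKM as deposited 0 factors rose and 10 fell (1.31% and 13.3% of tested genes), and scaled to the nuclear total 0 were called (1.97% of tested genes rose and 0.311% fell). Quantile normalization gave 0 higher and 1 lower (2.0% and 1.69%), the lobe ratio as a covariate 0 and 1 (2.62% and 0.504%) and centring by gene length 0 and 3 (2.93% and 3.93%). In a fit of LIPUS and Model alone 0 were called (0.00827% of tested genes rose and 0.0% fell), and 7 factors had an unadjusted p under 0.05.

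Calls in this comparison changed most with the library of Model replicate 7. Without it, 11 factors rose and 7 fell in LIPUS against Model, where 15.4% of tested genes rose and 17.5% fell. Eef1a1 was then higher by 1.29 on the log2 scale (adjusted p = 0.00249), followed by Eif4a2 (0.89), Eif2s3 (0.78), Eif2a (0.71), Eef2k (0.69), Eif3g (0.67), Eif3c (0.67), Eif5 (0.65), Eif3i (0.62), Eif4b (0.54) and Eif1a (0.41). Lower were Eif4ebp3 (-1.14), Eif2b5 (-0.85, adjusted p = 0.00361), Eif4g3 (-0.78), Eef1aknmt (-0.66), Eif2d (-0.45), Eif4a1 (-0.41) and Eif1 (-0.34). The share of factors that rose, 11 of 61, stood near the share of all genes. In Model against Control, leaving that library out gave 23 higher and 8 lower factors, where 22.0% of tested genes rose and 25.5% fell, and the median of the factors was 0.18. Eif3c, Eif2b4 (-0.60) and Eif5 (-0.44) joined the lower ones and Eef1akmt1 left the higher ones. Without LIPUS replicate 10, 0 factors were called in LIPUS against Model, where 1.03% of tested genes rose and 0.513% fell, and 25 rose and 4 fell in LIPUS against Control (11.8% and 13.5% of tested genes). LIPUS against Control had 29 higher and 4 lower factors without Model replicate 7 (15.2% and 19.3%).

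Ratios of 2 transcripts within a library do not depend on how libraries are scaled, apart from the 0.1 FPKM added to each. Of 30 tests on 10 pairs of paralogs or of a regulator and its target, 8 passed in a two-sided exact permutation test over all splits of 5 against 5, whose smallest p is 0.00794. The log2 ratio of Eif4g2 to Eif4g1 was 3.76, 4.15, 4.06, 3.43 and 3.40 in LIPUS, 3.58, 4.49, 4.26, 5.58 and 3.69 in Model and 1.23, 1.62, 1.41, 1.31 and 1.43 in Control. Every LIPUS and Model library exceeded every Control library, and the difference by the exact permutation test was 2.36 (p = 0.00794, adjusted p = 0.0298) in LIPUS and 2.92 (p = 0.00794, adjusted p = 0.0298) in Model. The ratio of Eif4g3 to Eif4g1 was -3.20 ± 0.55 in LIPUS, -2.33 ± 1.01 in Model and -3.59 ± 0.20 in Control (SD, n = 5 each), with a difference of 1.26 (p = 0.00794, adjusted p = 0.0298) in Model by the exact permutation test. The ratio of Eif4g3 to Eif4g1 did not pass without any 1 of the 5 Control libraries (adjusted p = 0.0529 to 0.0595, exact permutation test).

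The log2 ratio of the kinase Eef2k to its target Eef2 was -6.17 ± 0.33 in LIPUS, -6.49 ± 0.41 in Model and -4.95 ± 0.15 in Control (SD, n = 5 each). It fell in both comparisons with Control without overlap, with differences of -1.22 (p = 0.00794, adjusted p = 0.0298) in LIPUS and -1.54 (p = 0.00794, adjusted p = 0.0298) in Model by exact permutation. The log2 ratio of Eif4ebp1 to Eif4ebp2 was 1.79 ± 0.28 in LIPUS, 1.84 ± 0.61 in Model and 0.62 ± 0.27 in Control (SD, n = 5 each). Its difference passed in LIPUS (1.17 (p = 0.00794, adjusted p = 0.0298), exact permutation test) and not in Model (1.23 (p = 0.0159, adjusted p = 0.0529)), where it passed without Model replicate 6 (1.45, adjusted p = 0.0265) or Model replicate 7 (1.03, adjusted p = 0.0433). The ratio of Eif5a2 to Eif5a fell in Model by the exact permutation test, with a difference of -1.54 (p = 0.00794, adjusted p = 0.0298), and Eif5a2 was at 0.196 to 0.478 scaled FPKM there, against 0.514 to 0.763 in Control. The ratio of Eef1a2 to Eef1a1 passed in LIPUS, but with Eef1a2 at 0 in most libraries its size rests on the 0.1 added. The log2 ratio of Eif4a2 to Eif4a1 was 0.32 ± 0.22 in LIPUS, -0.67 ± 0.76 in Model and 0.33 ± 0.07 in Control (SD, n = 5 each). By the exact permutation test its difference was 0.99 (p = 0.0476, adjusted p = 0.13) in LIPUS against Model and -1.01 (p = 0.0476, adjusted p = 0.13) in Model against Control, so it did not pass in either. Without Model replicate 7 these differences were 1.30 and -1.31, and both passed (adjusted p = 0.0238, exact permutation).

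**Figure D3:**
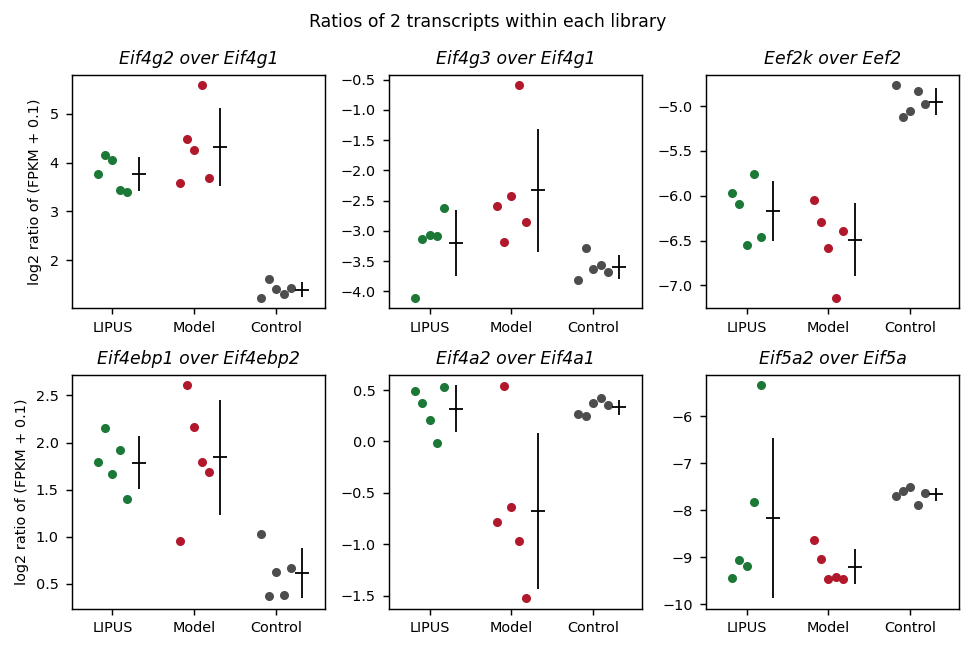
Log2 ratio of (FPKM + 0.1) between 2 factors in each library (points), with the group mean and SD (black), LIPUS and Model left of Control. Eif4g2 over Eif4g1 is at 3.40 to 4.15 in LIPUS and 3.58 to 5.58 in Model, above the 1.23 to 1.62 of Control, and Eef2k over Eef2 is below Control in all 10 LIPUS and Model libraries.

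Ribosomal protein genes, set beside the factors because both sets feed translation, had higher differences from Control than the factors. Of 81 tested, 77 rose and 0 fell in LIPUS against Control and 76 rose and 0 fell in Model against Control, with median log2 differences of 1.78 and 1.92 beside 0.40 and 0.34 for the factors and -0.13 and -0.12 for all tested genes. On FPKM as deposited 5 of them rose and 2 fell in LIPUS and 63 rose in Model, and after quantile normalization 41 rose in LIPUS and 57 in Model. Centred by gene length, 69 rose in LIPUS and 71 in Model. Their medians were then 0.87 and 1.19, beside 0.32 and 0.38 for the factors. The median log2 level of the factors averaged 5.09 ± 0.11 in LIPUS, 4.87 ± 0.21 in Model and 4.64 ± 0.12 in Control (SD, n = 5 each, log2 of scaled FPKM + 0.1). That of the ribosomal protein genes averaged 9.96 ± 0.45, 10.08 ± 0.32 and 8.19 ± 0.20 in the same order. Within a library the factors stood at -4.87 ± 0.47 relative to the ribosomal protein genes in LIPUS, -5.22 ± 0.50 in Model and -3.55 ± 0.23 in Control, and no LIPUS or Model library reached the Control range of -3.86 to -3.36. As a share of nuclear reads, factors took 2.96% ± 0.797 in LIPUS, 2.17% ± 1.20 in Model and 1.63% ± 0.108 in Control, and ribosomal protein genes 11.7% ± 3.74, 11.5% ± 0.735 and 3.41% ± 0.544. In LIPUS against Model 0 ribosomal protein genes were called with all libraries, but 4 rose and 13 fell without Model replicate 7, and 27 fell on FPKM as deposited. Of all tested genes 15.4% rose and 17.5% fell without Model replicate 7, and 13.3% fell on FPKM as deposited. No test was made of these set levels.

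**Figure D4:**
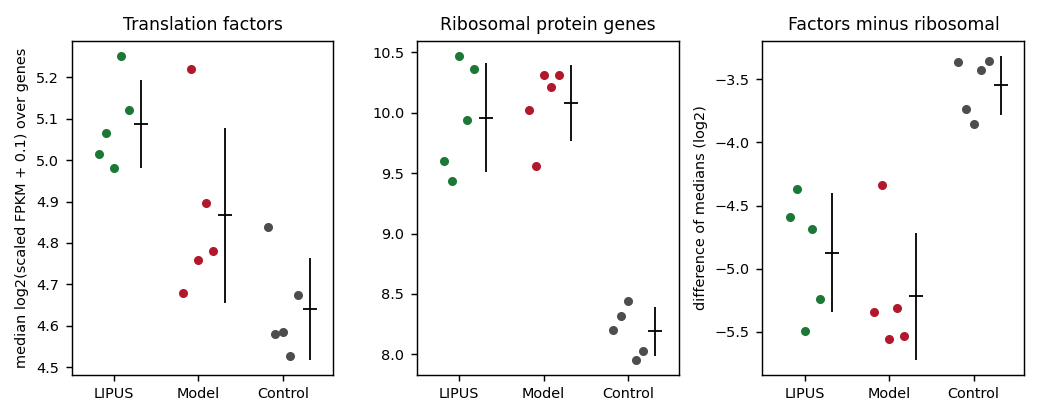
Median log2(scaled FPKM + 0.1) of the 61 factors, of the 81 ribosomal protein genes, and the difference of the 2 medians in each library (points), with group mean and SD (black), LIPUS and Model left of Control. The ribosomal protein genes are higher in all 10 LIPUS and Model libraries, and the difference is below the Control range in all 10.

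Of 10 tested factors whose mRNAs are known as TOP mRNAs in human cells, 9 rose and 1 fell in LIPUS against Control (median 1.20), and 7 rose and 1 fell in Model against Control (median 0.98), beside 12.1% higher and 13.7% lower of all tested genes in LIPUS and 15.9% and 19.7% in Model, Eif3a being the one that fell in both. Eif4b and Eef1a1 were the 2 that were not called in Model. These counts depend on the scaling: on FPKM as deposited 0 factors rose in LIPUS and 2 in Model, so all 9 higher calls in LIPUS were lost. Of all 26 factors called higher in LIPUS, 23 were then negative, among them Eif4b, Eef1d, Eef1g, Eef2, Eif3f and Eif3el1. After quantile normalization Eef1a1 (-0.048), Eef1g (-0.20) and Eef2 (-0.40) were negative in LIPUS, and Eef2 was called lower (limma, adjusted p = 0.0493). In LIPUS against Model 0 of the 10 were called, and 2 rose without Model replicate 7, where 15.4% of all tested genes rose.

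Differences from Control also went with gene length. The Spearman correlation of gene length with the log2 difference was -0.63 over the 61 factors in LIPUS against Control and -0.61 in Model against Control, beside -0.40 and -0.33 over all 12097 tested genes, and in LIPUS against Model it was 0.11 and -0.05. The genes of a set share their libraries and are not independent, so these are descriptions. The median length was 2008 bases for the factors, 705 for the ribosomal protein genes and 2972 for all tested genes. Of the 21 factors in the shortest 20% of genes (168 to 1528 bases), 15 rose in LIPUS and 14 in Model and none fell, with medians of 0.87 and 0.85, beside 0.51 and 0.54 for all genes of that length. Of the 13 factors in the longest 40% (from 3612 bases), 2 rose and 4 fell in LIPUS and 0 rose and 5 fell in Model. The 5 factors that fell were long: Eif4g3 (12362 bases), Eif4g1 (5882), Eif4ebp2 (5869), Eif3a (5139) and Eef2k (4464). When the differences were centred on the genes of like length, an alternative chosen after seeing the data, 14 factors rose and 3 fell in LIPUS against Control and 22 rose and 2 fell in Model against Control, where 8.83% and 7.62% of tested genes rose and fell in LIPUS and 16.8% and 13.1% in Model. Eif4g1 and Eif4g3 were then the 2 lower ones in Model, at -2.06 and -0.69, while Eif3a (-0.48, adjusted p = 0.063), Eef2k (-0.53, adjusted p = 0.0659) and Eif4ebp2 (-0.15, adjusted p = 0.468) were not called. In LIPUS 13 of the 30 calls were then lost, those of Eef1akmt2, Eif1, Eif1b, Eif2a, Eif2b1, Eif3g, Eif3i, Eif3l, Eif4a1, Eif4ebp2, Eif4ebp3, Eif5a and Eif6, and in Model those of Eef1akmt1, Eef1akmt2, Eif1b, Eif2b1 and Eif4a3 were lost as well. The part of gene length in the other results was not tested.

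**Figure D5:**
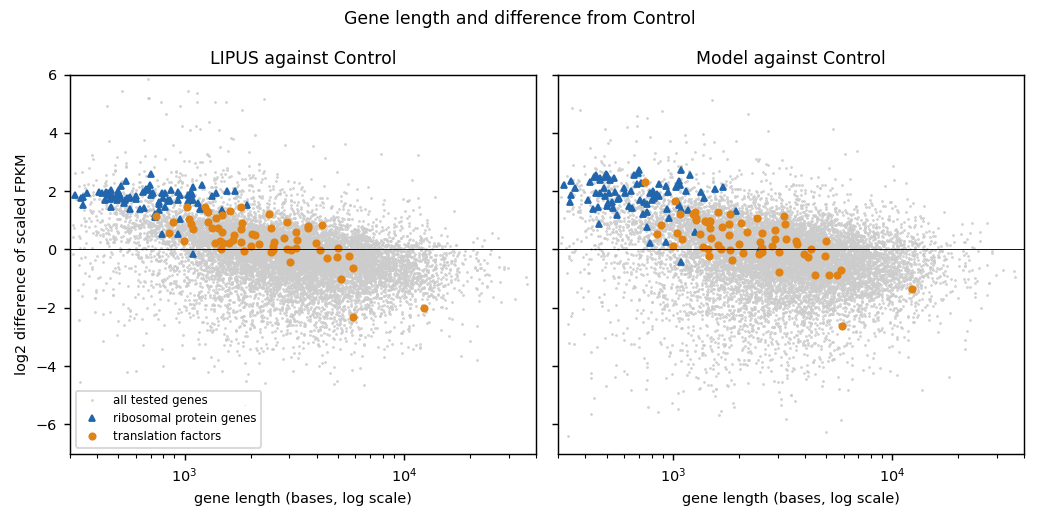
Log2 difference of scaled FPKM against gene length (bases, log axis) for LIPUS against Control (left) and Model against Control (right): all tested genes (grey), ribosomal protein genes (blue triangles) and factors (orange). Short factors lie mostly above 0: those of 168 to 1528 bases have medians of 0.87 in LIPUS and 0.85 in Model. Ribosomal protein genes of that length lie higher, with medians of 1.78 and 1.92 in the same order. The lowest orange points are long genes, led by Eif4g1 at -2.32 and -2.61.

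Genes of the neighbouring steps of translation were called in both directions, and the counts stand beside 12.1% higher and 13.7% lower of all tested genes in LIPUS and 15.9% and 19.7% in Model. Of 10 tested genes of termination, recycling and rescue, 2 rose in LIPUS and 3 in Model against Control and none fell: Denr and Mcts1, which release the last tRNA and mRNA from the small subunit, rose in both (0.86 and 0.58 in LIPUS, 0.61 and 0.60 in Model) and Pelo, which rescues stalled ribosomes, rose in Model (1.01). Of 20 cytosolic tRNA synthetases, 2 rose and 1 fell in LIPUS and 3 rose and 4 fell in Model, among them Nars1 and Tars1, which rose in both (0.43 and 0.42 in LIPUS, 0.72 and 0.70 in Model), Iars1, which fell in both (-1.32 in LIPUS and -0.95 in Model), Yars1 (1.28 in Model) and Vars1 (-1.09 in Model, -0.91 and adjusted p = 0.0585 without Model replicate 9). Of 8 tested enzymes that make hypusine and diphthamide, the modified residues of eIF5A and eEF2, 1 rose in LIPUS and 2 in Model, led by Dph3 (1.26 in LIPUS and 1.54 in Model). Of 7 mitochondrial initiation and elongation factors, 0 were called in LIPUS against Control and 3 rose in Model, namely Mtif2, Mtif3 and Guf1. Several of these calls depend on the setting: those of Denr and Mcts1 were lost in both comparisons on FPKM as deposited, scaled to the nuclear total and centred by gene length, that of Pelo also with the lobe ratio (0.43, adjusted p = 0.202), and those of Nars1 and Tars1 in LIPUS under each of the 3 other scalings. Guf1 (0.41) and Mtif3 (0.39) were not called with the lobe ratio as a covariate, nor was Vars1 (-1.03, adjusted p = 0.0827). All 3 calls of mitochondrial factors in Model were lost on FPKM as deposited and scaled to the nuclear total. None of these 4 lists had a called gene in LIPUS against Model with all libraries. Without Model replicate 7 that comparison had 1 higher and 2 lower genes of termination, 6 higher and 2 lower synthetases, 0 modifying enzymes and 0 higher and 3 lower mitochondrial factors. In that fit 15.4% of all tested genes rose and 17.5% fell.

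Pabpc1, the poly(A)-binding protein that binds eIF4G and closes the mRNA into a loop, was the 1 gene of the lists of related genes that, with all libraries, passed in LIPUS against Model. It averaged 332 ± 138 scaled FPKM in LIPUS, 106 ± 85.0 in Model and 299 ± 33.3 in Control (SD, n = 5 each). It rose by 1.87 on the log2 scale in LIPUS against Model (adjusted p = 0.0233) and fell in Model against Control (-1.81, adjusted p = 0.00292). With the lobe ratio as a covariate the difference of Pabpc1 in Model against Control was -0.98 and was not called (adjusted p = 0.0652). In LIPUS against Model the adjusted p was 0.152 in a fit of those groups alone and 0.0553 on FPKM as deposited (1.22), and the call was lost without LIPUS replicate 10 or Model replicate 8, 9 or 10 (1.57 to 1.87, adjusted p = 0.0572 to 0.0677). Of the 7 genes of its list, 2 rose and 2 fell in LIPUS against Control and 1 fell in Model against Control, beside the same shares of all tested genes. In LIPUS, Paip1, a partner that promotes translation (0.79), and Pabpc4, a paralog of Pabpc1 (0.53), rose, and the RNA-binding proteins Larp1 (-0.69) and Larp4 (-0.81) fell. Paip1 and Pabpc4 were negative on FPKM as deposited and not called when scaled to the nuclear total, and Larp1 and Larp4 were not called when centred by gene length. Pabpc1 itself did not differ past the threshold in LIPUS against Control (0.07, adjusted p = 0.924).

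Regulators of initiation moved in both directions, and the counts of the 3 lists stand beside 12.1% higher and 13.7% lower of all tested genes in LIPUS and 15.9% and 19.7% in Model. Of the 6 eIF2 kinases and phosphatase subunits, 1 rose and 3 fell in LIPUS against Control and 1 fell in Model against Control. Eif2ak2, the kinase activated by double-stranded RNA, rose in LIPUS (0.78), and the kinase of endoplasmic reticulum stress Eif2ak3 (-1.37) and the phosphatase subunit Ppp1r15b (-1.56) fell in LIPUS. Eif2ak1, the kinase that senses heme, averaged 5.78 ± 1.44 scaled FPKM in LIPUS, 3.78 ± 1.91 in Model and 10.3 ± 1.14 in Control (SD, n = 5 each) and was lower in both (-0.85 in LIPUS and -1.56 in Model). Of 19 tested genes of Atf4, the transcription factor made when eIF2 is phosphorylated, and its targets, 4 rose and 1 fell in LIPUS and 6 rose and 2 fell in Model. Atf4 itself averaged 267 ± 23.8 scaled FPKM in LIPUS, 249 ± 42.9 in Model and 136 ± 17.7 in Control (SD, n = 5 each) and rose by 0.97 in LIPUS and 0.86 in Model. Those calls of Atf4 were lost under the 3 other scalings: in LIPUS it was at -0.46 on FPKM as deposited, 0.68 (adjusted p = 0.0836) scaled to the nuclear total and 0.36 (adjusted p = 0.114) after quantile normalization, and in Model at 0.08 (adjusted p = 0.826), 0.32 (adjusted p = 0.374) and 0.16 (adjusted p = 0.477) in the same order. Ddit3 rose by 1.76 and 1.48 and the stress gene Nupr1 by 2.31 and 1.84 in LIPUS and Model, while the amino acid transporter subunit Slc3a2 was at -1.10 and -2.07. Atf5, a related transcription factor, rose in LIPUS (1.66), and Asns and Trib3, other targets, were called in neither. On FPKM as deposited, Ddit3 (0.34 in LIPUS, 0.71 in Model) and Atf5 (0.24) were not called, and Eif2ak2 (-0.64) was negative. Of the 8 calls of Atf4 and its targets in Model, 4 were lost scaled to the nuclear total. With the lobe ratio as a covariate 4 were lost as well. Centred by gene length, 2 of the 4 calls of eIF2 kinases and phosphatase subunits in LIPUS were lost. Of 13 genes of mTORC1 and kinases acting on the factors, 0 rose and 5 fell in LIPUS and 2 rose and 2 fell in Model. Mtor itself (-1.08) and Tsc1 (-0.93), which restrains it, fell in LIPUS. Mknk2, which phosphorylates eIF4E, was lower in both (-0.81 and -1.24), as was the mTOR inhibitor Deptor (-1.22 and -1.29), and Pdcd4, which blocks eIF4A, rose in Model (0.78). Centred by gene length, 0 of the 5 calls of this list in LIPUS were kept, and Pdcd4 was at 0.19 after quantile normalization (adjusted p = 0.334). In LIPUS against Model 0 genes of these 3 lists were called, and without Model replicate 7 they had 1 higher and 2 lower (eIF2 kinases and phosphatase subunits), 2 higher and 4 lower (Atf4 and targets) and 2 higher and 4 lower (mTORC1 and kinases). Of all tested genes 15.4% rose and 17.5% fell without that library. The medians over the 3 lists against Control were -0.57, -0.31 and -0.50 in LIPUS and -0.76, -0.44 and -0.29 in Model, beside -0.13 and -0.12 for all tested genes. The median of the mTORC1 list in LIPUS was -0.09 without LIPUS replicate 10.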

How the data were processed

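Per the labels' protocols, TRIzol was used on prostate tissue and the VAHTS Universal V5 kit on the total RNA. The values used are FPKM, which the authors deposited in 1 table for all 15 libraries. The submitters' processing notes name fastp, HISAT2, SAMtools, HTSeq, R 3.2.0, DESeq2 and the build rn6, with no role or order, and the strand setting is not stated. All deposited FPKM of 22436 genes came out as whole reads within 0.001 once a library total and a gene length were solved for, which gave the depths and lengths, although the length of 1802 genes with reads in 1 library was less constrained. Near the limit, 3 reads in a gene of 2 kb equal 0.0233 to 0.148 scaled FPKM, counting error only.

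Deposited FPKM were divided by a median-of-ratios factor per library and tested as log2(scaled FPKM + 0.1) with limma 3.58.1 (R 4.3.3), with an intensity trend, in 1 fit of all 15 libraries. The fit pools the spread of groups that differ in it: the median SD of the factors on the log2 scale was 0.33 in LIPUS, 0.35 in Model and 0.13 in Control. P-values were adjusted by Benjamini-Hochberg over 12097 genes. Ratios of 2 factors in a library were tested by two-sided exact permutation over all splits of 5 against 5, adjusted over 30 tests. Counts and plots used Python 3.11.15, numpy 2.4.6, pandas 2.3.3 and matplotlib 3.10.9. Scripts were tested on simulated data. No libraries were duplicates: the closest pair of one group differed by a chi-square of 75.1 per degree of freedom.

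The members, the lists of related genes and the markers were chosen with earlier results of these data known. Ribosomal protein genes were the 84 cytosolic ones, 17 similarly named genes being left out. The text names, per comparison, up to 10 called members at each end, the 6 most abundant members, members of small roles, members of the ratio pairs, members whose call differs from most of their role and up to 3 genes with the smallest p of each other list. Of the members named, Eif2a, Eif2b2, Eif2b3, Eif2b4, Eif2s1, Eif2s2, Eif2s3, Eif3g, Eif3i, Eif3l, Eif4e3, Eif4h, Eef1akmt1 and Eef1akmt4 fall outside that rule, as do Trib3 and Vars1, and were chosen after their values were seen. All 63 members matched RefSeq by gene number and 61 by symbol. Dph7 and Svs2 were not analysed here. Same-numbered samples of different groups did not deviate together (3 of 15 correlations over 0.1), so replicate numbers were not taken as pairs. Alternatives covered scaling, added constant, filter, samples in the fit, voom on recovered reads, replicate block, lobe ratio, each library left out and gene length.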

Additional observations from a re-analysis of the deposited data

Results flagged for a closer look

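Of 145 groups of 5 libraries checked for 49 named factors on the log2 scale, 14 held 1 library whose gap to its nearest neighbour exceeded 0.71 of the range, where chance gives about 1 in 20. Model replicate 7 held 4 of these values, LIPUS replicate 10 held 4, LIPUS replicate 9 and Model replicate 6 held 2 each, and Model replicate 9 and Control replicate 9 held 1 each.

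In Model replicate 7, Eif3c was at 98.2 scaled FPKM against 24.7 to 34.1 in the other Model libraries, Eif5 at 81.5 against 27.5 to 37.6, Eif5b at 36.4 against 17.2 to 20.5 and Eif4g2 at 250.1 against 145 to 165. All 4 lay above the rest of their group, in the library whose ratio of ventral to dorsolateral lobe genes also stood apart. The part of lobe make-up in these values was not tested library by library.

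In LIPUS replicate 10, Eif3a was at 34.7 scaled FPKM against 20.7 to 21.8 in the other LIPUS libraries and Eif1b at 34.8 against 17.6 to 20.8. Eif1ad, a protein with an eIF1A-like domain, was at 2.71 there against 8.52 to 9.95, and Eif4a1 at 103 against 129.7 to 142. In LIPUS replicate 9, Eef2k was at 10.6 scaled FPKM against 8.66 to 9.19 in the other LIPUS libraries and Eif1a at 27.7 against 31.7 to 33.4.

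In Model replicate 6, Eif4ebp2 was at 31.7 scaled FPKM against 17.5 to 19.7 in the other Model libraries, inside the Control range, and Eif1 was at 415 against 482 to 506. Eif4g1 was at 3.32 scaled FPKM in Model replicate 9 against 8.52 to 12.2 in the other Model libraries. Eif3el1 was at 60.6 in Control replicate 9 against 74.5 to 77.4 in the other Control libraries.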

How the results depend on the processing

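The counts moved with the scaling of the libraries, and the cause was not tested. Main values were 26 higher and 4 lower factors in LIPUS against Control, 24 and 5 in Model against Control and 0 and 1 in LIPUS against Model, with 3114, 4307 and 519 genes called in all. FPKM as deposited gave 0 higher and 36 lower factors and 9415 genes in LIPUS against Control, 2 and 11 in Model against Control, and 10 lower factors and 1820 genes in LIPUS against Model, with 5 ribosomal protein genes higher in LIPUS against Control. Medians were then -0.94, -0.43 and -0.56. Scaling to the nuclear total gave 8 higher factors in LIPUS and 6 in Model against Control, and 0 lower factors and 278 genes in LIPUS against Model, with medians of 0.078, -0.19 and 0.32. Quantile normalization gave 16 higher factors and 41 higher ribosomal protein genes in LIPUS against Control and 9 lower factors in Model against Control, with medians of 0.094 and 0.024. Centring by gene length gave 14 higher factors and 1990 genes in LIPUS against Control, 2 lower factors in Model against Control, and 3 lower factors and 829 genes in LIPUS against Model. The lobe ratio as a covariate gave a median of 0.63 in Model against Control, and ended 0 of 30 calls of factors in LIPUS and 2 of 29 in Model, Eif1b and Eef1akmt1. In LIPUS against Model there were 271 genes without the filter, 80 genes and 0 factors with voom, and 1 gene and 0 factors in a fit of those 2 groups. Adding 0.01 or 1 in place of 0.1 changed no count by over 1.5 times and no call of a named member, but ended that of Eef1a2 over Eef1a1 (adjusted p = 0.0529 and 0.201, exact permutation test).

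Replicate numbers are shared labels and were not shown to pair the samples. With the replicate number as a block, 129 genes and 0 factors were called in LIPUS against Model. Of the named members, Eif2b5 in LIPUS against Model (limma, adjusted p = 0.0735), Eif5a in LIPUS against Control (adjusted p = 0.0648) and Pabpc1 in LIPUS against Model (adjusted p = 0.057) were then not called. By the sign-flip test over 32 patterns, whose smallest p is 0.0625, 0 of 30 ratios could pass.

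Signs of called or near-threshold members that turned were these. On FPKM as deposited, in LIPUS against Control: Eef1akmt2 -0.47, Eef1aknmt -0.78, Eef1d -0.20, Eef1g -0.35, Eef2 -0.49, Eif1 -0.57, Eif1b -0.48, Eif2b1 -0.84, Eif2s3y -0.51, Eif3el1 -0.25, Eif3f -0.13, Eif3k -0.10, Eif3m -0.14, Eif4a1 -0.91, Eif4b -0.63, Eif4ebp1 -0.88, Eif4ebp3 -0.26, Eif5a -0.95 and Eif6 -0.68. Eif2a, Eif2s3, Eif3g, Eif3i and Eif3l, called higher in LIPUS against Control, were also negative there. In Model against Control: Eef1a1 -0.27, Eef2 -0.12, Eif2b1 -0.022, Eif2d -0.17, Eif4a3 -0.37, Eif4ebp1 -0.26, Eif5a -0.012 and Eif6 -0.23. After quantile normalization, in LIPUS: Eef1a1 -0.048, Eef1g -0.20, Eef2 -0.40, Eif1 -0.076 and Eif5a -0.10, and in Model: Eef1a1 -0.97, Eef1g -0.092 and Eef2 -0.49. Eef2 was then called lower in LIPUS and in Model. On FPKM as deposited, factors called lower in LIPUS included Eif4a1 (limma, adjusted p = 0.0178), Eif2b1 (adjusted p = 0.0183) and Eef1aknmt (adjusted p = 0.0167). Scaled to the nuclear total, in Model: Eef1a1 -0.037, Eif4a3 -0.13 and Eif4ebp1 -0.021. Centred by length, in LIPUS: Eif4ebp1 -0.074 and Eef2k 0.11. With the lobe ratio, in Model: Eif3c 0.014.

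Leaving out 1 library at a time gave 20 to 29 higher and 4 lower factors in LIPUS against Control, 23 to 26 and 5 to 8 in Model against Control and 0 to 11 and 0 to 7 in LIPUS against Model. All genes called ranged over 2297 to 4163, 3502 to 5755 and 110 to 3977 in that order. Higher ribosomal protein genes were 77, 75 to 76 and 0 to 4 (with 13 lower in LIPUS against Model without Model replicate 7), medians of the factors 0.37 to 0.55, 0.18 to 0.40 and 0.036 to 0.13, and factors minus ribosomal protein genes -1.45 to -1.17, -1.89 to -1.58 and 0.22 to 0.56. Between 7 and 11 ratios passed.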

Other observations

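Markers of immune cells differed between LIPUS and the other groups. Of 4 macrophage markers 2 rose in LIPUS against Model, 2 rose in LIPUS against Control and 2 fell in Model against Control, and their sums were 23.0 to 75.6 scaled FPKM in LIPUS, 11.3 to 22.8 in Model and 22.5 to 29.1 in Control. Of 3 tested T cell markers 1 rose in LIPUS against Model, 2 in LIPUS against Control and 1 in Model against Control. Of 5 markers of dividing cells 3 rose in LIPUS against Model. Of 4 basal epithelial markers 2 rose in LIPUS against Model, 1 fell in LIPUS against Control and 2 fell in Model against Control. These shares stand beside 2.81% higher and 1.48% lower of all tested genes in LIPUS against Model. Their part in the levels of the factors was not tested.

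Of 6 luminal markers 1 fell in LIPUS against Model, 2 rose and 1 fell in LIPUS against Control, and 3 rose and 1 fell in Model against Control. Of all tested genes 12.1% rose and 13.7% fell in LIPUS against Control and 15.9% and 19.7% in Model against Control. All 3 ventral lobe genes fell in Model against Control, and 0 were called in LIPUS against Control. Of the 2 dorsolateral genes 0 were called in any comparison with all libraries. Without Model replicate 7, both rose in Model against Control (median 4.82) and fell in LIPUS against Model (median -3.46), and all 3 ventral lobe genes rose in LIPUS against Model (median 4.96). That library was set apart by the ratio of these same genes, so these calls are not independent of leaving it out. In that fit 22.0% of tested genes rose and 25.5% fell in Model against Control, and 15.4% and 17.5% in LIPUS against Model. Of 5 tested seminal vesicle genes 1 rose in LIPUS against Control. Smooth muscle markers fell in 2 of 4 cases in LIPUS and 1 of 4 in Model against Control, 1 of 4 neuronal markers fell in Model against Control and 0 of 5 tested skeletal muscle markers were called. All 3 endothelial markers and 3 of 5 fibroblast markers fell in LIPUS and in Model against Control.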
